A study of Mus musculus with 15 samples.

Results

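Activated pancreatic stellate cells (PSC) of heterozygous mice (PSC HT) were compared with those of wild-type mice (PSC WT), each genotype on 3 arrays, which are 6 of the 15 samples of the series. They were chosen by their sample titles alone, and every gene measured on them was described. Both genotypes had spent 2 weeks in culture and had become activated there. The labels used here name neither the heterozygous locus nor the strain or age of the mice, and they do not say whether the 3 arrays of a genotype stand for separate animals or separate cultures. The p-values therefore measure the spread between these arrays, which may be technical. The other 9 arrays held mouse pancreatic cancer cells in 3 groups of 3, and the untreated group among them served below to trace cancer cell transcripts. RNA was hybridised to Agilent mouse arrays in 1 colour. A level is log2 of a probe's signal minus the 75th percentile of its array, so a level of 0 equals that percentile. A difference is HT minus WT in log2 units, given ± SE with n = 3 arrays a genotype and limma's adjusted p. A gene was called where that adjusted p was under 0.05.

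Stellate cells are the vitamin A-storing mesenchymal cells of the pancreas. On injury or on culture plastic they lose their retinoid droplets, take on smooth muscle actin fibres and lay down collagen. A culture grown out of pancreas can also hold macrophages, mesothelial cells of the organ's covering, endothelium, Schwann cells and epithelium. In bulk samples of this kind, fewer cells of a type and less RNA per cell cannot be told apart.

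The genes that define activated stellate cells stood at high levels in both genotypes. Acta2, the smooth muscle actin, read 7.23, 7.11 and 7.21 on the WT arrays and 7.44, 7.44 and 7.49 on the HT arrays, with no overlap and a difference of 0.27 ± 0.07 that missed the threshold (adjusted p = 0.0718, limma). Tagln and Cnn1, which bind actin in contractile cells, stood at 8.18 to 8.77 and 7.68 to 8.28 over the 6 arrays and did not pass either. The retinoid-esterifying enzyme Lrat and the extracellular protein Reln, both markers of quiescent stellate cells, were not well above background on any of the 6 arrays.

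The 6 arrays had 54.3% to 63.8% of their spots well above background and 0 saturated, with a 75th percentile of 913 to 1428 signal units. Slide 1 held WT array 1 and HT arrays 1 and 3, and slide 2 held WT arrays 2 and 3 and HT array 2. The slope of the spike-in controls, RNAs added in known amounts, was 0.927, 0.914 and 0.909 on the WT arrays, 0.896 on HT array 2, and 1.05 and 1.06 on HT arrays 1 and 3. Most low-slope arrays were thus WT, and the part of the slope in the differences was examined with HT array 2 alone, as given below. Correlation over genes was 0.995 to 0.997 between WT arrays, 0.993 to 0.995 between HT arrays and 0.983 to 0.990 between genotypes.

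HT array 3 carried a trace of cancer cell transcripts. It was read from 47 genes that were well above background in untreated cancer cells, at a level of 2 or more, and on none of the other 5 PSC arrays. Their signal on HT array 3 had a median of 0.853% of that in the cancer cells, with quartiles of 0.751% and 1.01%, against medians of 0.0546% to 0.0683% on the other PSC arrays, where the choice of genes keeps them low. On HT array 3, which the choice did not use, 36 of the 47 were well above background. Wfdc2, a secreted protease inhibitor of epithelia, read 2.57 there, between -8.20 and -6.00 on the other PSC arrays, and 7.64 in the cancer cells. Cdh1, the epithelial cadherin, read -2.45 on HT array 3, between -8.22 and -7.61 on the others, and 4.43 in the cancer cells. Hnf4a, an endodermal transcription factor, and Tff2, a gastric mucosal peptide, stood at -1.04 and -2.51 on HT array 3 alone. These genes were read on that one array only, and the shares spanned 0.562% to 2.99% from gene to gene.

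**Figure D1:**
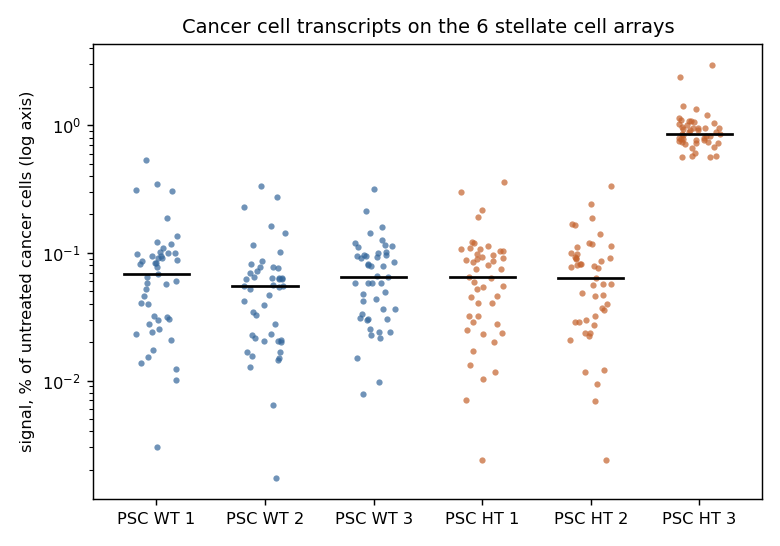
Signal of 47 cancer cell transcripts (points) on each PSC array, as a percentage of the mean of the untreated cancer cell arrays, on a log axis, with the median as a black line. HT array 3 has a median of 0.853%, and the other 5 arrays lie between 0.0546% and 0.0683%.

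Genes that cancer cells hold at far higher levels than PSC moved with this trace. Krt8, a keratin of simple epithelia and mesothelium, read 1.77, 1.72 and 1.73 in WT and 0.88, 1.02 and 2.44 in HT, so that HT arrays 1 and 2 lay below all WT arrays and HT array 3 above them. Without HT array 3 it differed by -0.80 (adjusted p = 0.0113), and with it by -0.30 ± 0.40 (adjusted p = 0.744). Krt19 read 0.95 on HT array 3 and was below all WT arrays, at -0.95 to -0.68, on HT arrays 1 and 2. Lgals4 and Lgals2, galectins of the gut epithelium, stood at 1.72 and -0.75 on HT array 3 and at -2.45 to -2.12 and -5.50 to -5.36 on the other HT arrays. Of the epithelial list, 22 members were tested, 1 was called higher and 3 lower. Without HT array 3 these counts were 1 and 6, and without WT array 2, WT array 3 or HT array 2 they were 1 and 1. Summed over the list, signal relative to the 75th percentile was 40.1 to 42.0 in WT and 26.5 to 45.6 in HT. Epcam, the general epithelial surface antigen, was not well above background on any PSC array, and Cdh1 was so on HT array 3 alone. The 893 genes at least 4-fold higher in cancer cells than in PSC WT had a median excess of 0.13 on HT array 3 over the mean of HT arrays 1 and 2, and the other 19992 genes 0.01. Of the 893, 62 were called higher and 111 lower (19.4%), against 7.21% of the others called. Leaving all 893 out gave 1416 calls, and leaving out HT array 3 itself gave 1033. A further 161 probes above a level of -4 were well above background on HT array 3 and on no other of the 15 arrays, against 40 to 62 on each other PSC array.

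Over all genes, 1615 of 20885 tested were called (7.73%), 616 higher in HT (2.95%) and 999 lower (4.78%). At least 2-fold differences were seen in 213 and 371 of them. Among the calls, 17 rises and 71 falls were well above background on all arrays of 1 genotype and on none of the other. These genes entered the test only through the genotype where they are bright. Their p-values set signal against readings below background, and they are counted in the lists below. The median difference over all genes tested was -0.00, the median of called rises 0.74 and of called falls -0.79. On 29.1% of all genes tested the 3 HT arrays did not overlap the 3 WT arrays, and on all 1615 called genes they did not. With any single array left out in turn, 523 stayed called in all 6 fits, 20.6% of the rises and 396 of the falls (39.6%). Leaving out WT array 2 or WT array 3 cost the most, with 635 and 574 calls. Calls were more frequent at low and middle levels (8.71%, 10.5% and 7.72% in the lower quartiles of level) than in the highest quartile (4.04%). The count of each gene list below is to be read beside the shares of all genes, 2.95% higher and 4.78% lower. Counts at an unadjusted p under 0.05 (limma) are to be read beside 22.2% of all genes tested.

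**Figure D2:**
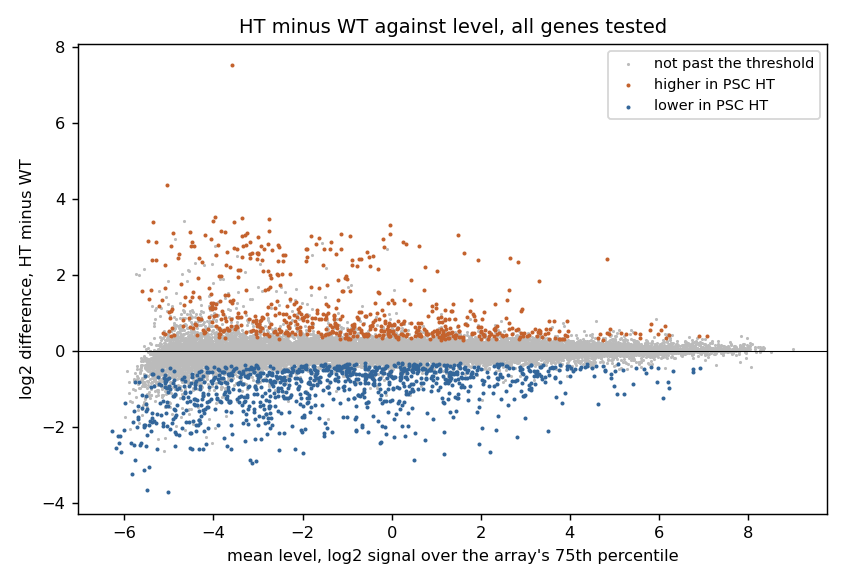
Difference between genotypes (HT minus WT, log2) against mean level for all 20885 genes tested, with the 616 called higher in orange and the 999 called lower in blue. The highest orange point is the predicted transcript Gm2238, whose WT arrays were all below background, so that its height is a reading against background.

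Gm2238, a predicted transcript by the files' annotation, stood apart from all other rises in the plot of differences against level. Its probe lies on chromosome 18 from 5589849 to 5589908, minus strand, in build mm9. The rule for named genes leaves such names out, so the gene was chosen after its values were seen. The probe was not well above background on any WT array, with readings of -6.91, -7.36 and -7.80, and read 0.13, 0.24 and 0.15 on the HT arrays. HT was at least 59.3-fold higher, a lower bound that sets the HT mean against the higher of each WT array's reading and its detection floor. The gene was called, but it entered the test through the HT arrays alone, so its p-value sets signal against readings below background. In untreated cancer cells the probe read -5.63.

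The probes of Zeb1, a zinc finger repressor of E-cadherin, lie on the plus strand of the same chromosome, and they disagreed. The brightest, at 5774008 to 5774067, read -0.18, 0.11 and 0.00 in WT and -0.22, -0.15 and -0.32 in HT, overlapping readings with a difference of -0.21 ± 0.10 (adjusted p = 0.295). At 5766449 to 5766508, WT read -0.32, -0.38 and -0.51 and HT -0.91, -0.93 and -1.04. A dimmer one at 5706790 to 5706849 read -3.78, -2.97 and -2.96 in WT and -4.07, -4.19 and -4.54 in HT. On both of these HT lay below WT with no overlap. At 5642436 to 5642495 the order was turned, with -6.02, -5.47 and -5.73 in WT and -4.78, -4.72 and -4.51 in HT, and 1 of 3 WT arrays well above background there. Only the brightest probe entered the test. Of the related repressors of epithelial genes, Zeb2 rose by 0.41 ± 0.09 (adjusted p = 0.0412) and Snai1, at 0.44 ± 0.10, missed the threshold (adjusted p = 0.0558). These genes were also chosen after their values were seen.

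The largest named rises were genes that macrophages express. Of 31 tested core macrophage markers 22 were called higher and 0 lower, with a median difference of 2.59, against 2.95% of all genes called higher and a median of -0.00. Of 29 phagocytic, Fc and scavenger receptors 14 were higher and 1 lower, with a median of 1.49. Without WT array 2 or WT array 3 only 1 of these receptors was called higher, with medians of 1.49 and 1.44, without WT array 1 6 were, and without HT array 2 or HT array 3 8 were. Macrophages engulf debris and microbes through these receptors, and signal from many of them through the adaptors Tyrobp and Fcer1g.

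Tyrobp read -0.39, -1.62 and -1.57 in WT and 2.78, 1.09 and 1.21 in HT, a difference of 2.88 ± 0.54 (adjusted p = 0.0276). Array 1 was the highest of each genotype by more than 1 log2 unit, and the genotypes did not overlap. C1qa, a chain of the complement recognition molecule, read -1.53, -2.88 and -2.98 in WT and 1.69, -0.02 and 0.07 in HT (3.04 ± 0.58, adjusted p = 0.029). Mpeg1, the pore protein perforin-2, read -1.07, -1.71 and -2.22 in WT and 2.39, 0.80 and 0.65 in HT (2.95 ± 0.52, adjusted p = 0.023). The same order of arrays held across the list. Over its 22 called members, HT array 1 exceeded the mean of HT arrays 2 and 3 by a median of 1.63 (0.885 to 1.86), and WT array 1 exceeded its fellows by a median of 1.00 (-0.03 to 1.60). HT arrays 2 and 3 differed by a median of 0.03.

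The calls of these genes depended on single arrays. Without WT array 2, and likewise without WT array 3, 0 of the 31 core markers were called, although their median difference was then still 2.49 and 2.44. Without HT array 2 or HT array 3 there were 11, without WT array 1 16 and without HT array 1 24. With the replicate number as a block 23 were called, against 22 in the main fit. Within slide 2, which holds neither array 1, 24 were called with a median of 2.33, and with slide as a block 15. On HT array 2 alone against the 3 WT arrays, all of low spike-in slope, 6 were called with a median of 2.01. Summed over the list, signal ran from 61.8 to 81.5 in WT and up to 308 in HT, with every HT array above every WT array. Of the members not called, Cd14, the lipopolysaccharide co-receptor, stood at 1.61 ± 0.37 (adjusted p = 0.0544) and Cx3cr1, the fractalkine receptor, at 3.42 ± 0.78 (adjusted p = 0.051). Fcgr1, Ms4a6c, Spi1 and Cd74 were not tested, since each fell below background on at least 1 array of both genotypes.

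**Figure D3:**
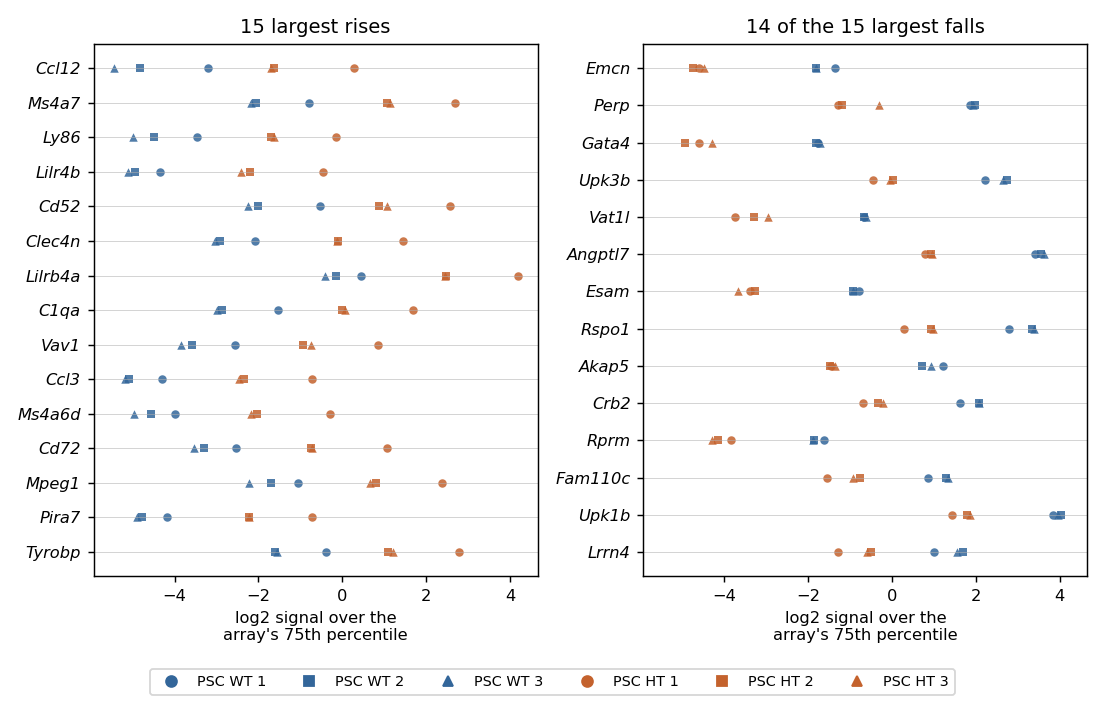
Level of the 15 largest rises and 14 of the 15 largest falls among genes measured on all 6 arrays, 1 symbol per array (circle, square and triangle for arrays 1, 2 and 3). Among the rises array 1 (circles) is the highest of each genotype, and the falls keep the 3 arrays of a genotype closer together.

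Besides those genes, the 15 largest rises among genes well above background on all 6 arrays were Ccl12, Ms4a7, Ly86, Lilr4b, Cd52, Clec4n, Lilrb4a, Vav1, Ccl3, Ms4a6d, Cd72 and Pira7, with differences from 2.88 to 3.48 over all 15. Ccl12, a chemokine that draws monocytes, read -3.20, -4.83 and -5.45 in WT and 0.29, -1.63 and -1.70 in HT (3.48 ± 0.74, adjusted p = 0.0418). Vav1, a guanine nucleotide exchange factor of blood cells, read -2.56, -3.57 and -3.85 in WT and 0.84, -0.95 and -0.74 in HT (3.04 ± 0.55, adjusted p = 0.0248). Clec4n, the fungal sensor dectin-2, read -2.09, -2.91 and -3.03 in WT and 1.45, -0.11 and -0.13 in HT (3.08 ± 0.48, adjusted p = 0.016). No array of one genotype overlapped the other for any of the 15, as the rule that chose them required. All 15 stayed called without WT array 1 and 0 of 15 without WT array 2 or WT array 3, where they differed by 2.67 to 3.31 with adjusted p from 0.0646 to 0.139. Lilr4b, Lilrb4a and Pira7 belong to families of close copies whose probes may share targets.

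Some called rises entered the test through the HT arrays alone, so their p-values are not given as support. Clec4e, a lectin receptor for mycobacterial glycolipid, was not well above background in WT. It read -1.88, -3.15 and -3.55 in HT, at least 7.24-fold higher. Dennd1c, an activator of Rab GTPases, was at least 6.81-fold higher. Aoah, which deacylates bacterial lipopolysaccharide, Arhgap30, Ptpro, Sirpb1b, Nxpe5 and Padi2 were at least 3.61-fold to 5.10-fold higher. Only 1 of these 8 remained called without WT array 2 and 2 without WT array 3.

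Promoter sequence was looked at for 2 motifs that textbooks tie to myeloid and interferon-driven genes. Each promoter sequence ran from 250 bases before the RefSeq start to 50 after it (build GRCm38.p6). Only the 250 bases before the start, called the window here, were searched, on both strands. GAGGAAG, read as CTTCCTC on the other strand, is the core bound by the myeloid factor PU.1. It was present in the windows of 13 of 29 phagocytic receptor genes (44.8%) and 7 of the 11 of them called higher (63.6%), against 12.9% of the 12377 tested genes with a window, 17.5% of the 400 called higher and 14.8% of the 656 called lower. Of the core macrophage markers 4 of 24 held it (16.7%), and 2 of the 15 called higher (13.3%). The interferon-stimulated response element was searched as a pair of GAAA separated by 2 free bases. It was present in 15 of 27 interferon genes (55.6%) and 1 of the 2 of them called higher. It was present in 2 of 19 MHC genes (10.5%) and 3 of 24 core macrophage markers (12.5%), against 3.46% of all genes with a window. The share was 3.19% of the tested genes, 6.25% of the genes called higher and 3.35% of those called lower. A match is a description of the letters, not a site of binding or a cause. The stretches below were taken from list genes called higher. They are on the strand of the gene and show how the motif sits before the start. Capitals mark the motif.
Fcgr3 (chr1:171059395-171059435, minus strand, PU.1 core): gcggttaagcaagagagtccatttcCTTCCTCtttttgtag
Clec5a (chr6:40585830-40585886, minus strand, PU.1 core): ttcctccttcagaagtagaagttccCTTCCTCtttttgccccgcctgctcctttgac
Clec12a (chr6:129350158-129350214, plus strand, PU.1 core): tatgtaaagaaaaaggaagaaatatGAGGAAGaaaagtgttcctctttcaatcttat
Trem2 (chr17:48346335-48346391, plus strand, PU.1 core): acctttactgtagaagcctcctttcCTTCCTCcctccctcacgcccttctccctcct
Cybb (chrX:9469325-9469378, minus strand, interferon element): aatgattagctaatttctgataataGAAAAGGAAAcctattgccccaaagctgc
Ctss (chr3:95526740-95526785, plus strand, interferon element): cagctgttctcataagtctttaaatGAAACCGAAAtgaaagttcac
Oas1a (chr5:120907526-120907564, minus strand, interferon element): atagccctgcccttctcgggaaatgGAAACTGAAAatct

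These 7 genes all rose, as the choice of stretches from genes called higher required. Fcgr3, a receptor for antibody, read -1.44, -2.28 and -2.39 in WT and 1.34, -0.31 and -0.31 in HT (2.28 ± 0.50, adjusted p = 0.0461). Clec5a, Clec12a and Trem2, which pass their signals to Tyrobp or to inhibitory phosphatases, rose by 2.59, 2.70 and 2.23. Cybb, the catalytic subunit of the phagocyte oxidase, read -4.82, -6.01 and -6.33 in WT and -1.55, -3.18 and -3.24 in HT, with 1 of 3 WT arrays well above background (3.06 ± 0.57, adjusted p = 0.0272). Ctss, the lysosomal protease cathepsin S, rose by 2.59 ± 0.53. In these 6 genes array 1 was the highest of each genotype. Oas1a, an interferon-induced sensor of double-stranded RNA, did not share that order: it read 0.71, 0.80 and 0.79 in WT and 2.05, 1.91 and 2.07 in HT (1.25 ± 0.08, adjusted p = 0.000877).

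Spp1, Apoe and other genes of lipid-handling macrophages followed, with 7 of 20 higher and 0 lower (2 without WT array 2 or WT array 3) and a median of 0.45. Spp1, the matrix phosphoprotein osteopontin, read 2.41, 2.42 and 2.29 in WT and 5.23, 3.67 and 3.77 in HT (1.85 ± 0.41, adjusted p = 0.0456), with HT array 1 again highest. The sterol exporter Abcg1 rose by 1.39 ± 0.23 and Apoe, the carrier of cholesterol, by 0.89 ± 0.12. Of 13 polarization genes (median 0.12) 4 were higher, Mrc1, Folr2, Ccl24 and Il6, and 1 lower, the iron carrier Trf. Of the rises 0 remained without WT array 2, WT array 3 or HT array 3. Among 25 Toll-like and inflammasome sensors 2 were higher (median of the list 0.17, and 0 without WT array 2 or WT array 3) and Nod1, a sensor of bacterial wall fragments, was lower, from 2.72, 2.82 and 2.74 to 1.72, 1.83 and 1.98 (-0.91 ± 0.09, adjusted p = 0.00305). The osteoclast list, with 9 tested, held 1 rise, Tnfrsf11a, and 1 fall, Itgb3, with a median of -0.11, and neither was called without WT array 2, WT array 3, HT array 2 or HT array 3. The scavenger receptor Olr1 was the 1 phagocytic gene that fell, from -1.65, -1.95 and -2.09 to -3.62, -3.82 and -3.92 (-1.89 ± 0.14, adjusted p = 0.00131). Markers of T, B and natural killer cells (12 tested) and of dendritic, mast, neutrophil and red cells (13 tested) had 0 calls in limma's test, with medians of 0.04 and 0.15 and with 2 and 3 genes at an unadjusted p under 0.05.

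Antigen presentation genes rose without the pattern of array 1. Of 20 tested 10 were higher and 0 lower (6 to 9 with any single array left out), with a median of 0.34. On HT array 2 alone against WT 1 was called, with a median of 0.27, and with the slope as a covariate 6 were. H2-Ab1, an MHC class II chain, read 0.09, -0.17 and -0.17 in WT and 1.46, 1.43 and 1.70 in HT (1.61 ± 0.11, adjusted p = 0.00119). The 3 HT arrays lay close together, unlike those of the macrophage markers. Psmb8, a catalytic subunit of the immunoproteasome, read -0.87, -0.76 and -0.87 in WT and 0.35, 0.01 and 0.14 in HT (1.00 ± 0.10, adjusted p = 0.00402). H2-Q7, a class I molecule, rose by 0.94 ± 0.10. Over the 10 called genes HT array 1 exceeded the other HT arrays by a median of 0.17. Nlrc5, the activator of class I genes, rose by 0.91 ± 0.14 over 5 arrays, since its spot on HT array 3 was marked as an outlier and left out. The class I genes are close copies of each other, and their probes may share targets. By symbol alone, 15 of 26 H2 genes were higher (57.7%, against 2.95% of all genes) and 0 lower.

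Of 36 interferon response genes 4 were higher and 0 lower, a share of rises above the 2.95% of all genes, with a median of 0.32. They were Oas2, Oas1a, Oasl1 and Parp14, and Oas2 read -3.03, -2.79 and -2.65 in WT and -1.33, -1.81 and -1.56 in HT (1.26 ± 0.15, adjusted p = 0.00727). Without WT array 3, HT array 2 or HT array 3 the count was 2, and the median was 0.20 without either of these HT arrays. Without WT array 1, 3 were higher and 1 lower, with a median of 0.12. The list's median level was -0.96, -0.38 and -0.43 on the WT arrays and -0.49, 0.07 and 0.12 on the HT arrays, which overlap.

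Chemokines and complement moved in both directions. Of 29 chemokine genes 6 were higher and 1 lower, with a median of 0.36. Ccl4 and Ccl8 were called in 0 of the 6 fits that left out an array, and without WT array 2 or WT array 3 only 1 rise was called. Ccl11, the eosinophil attractant eotaxin, was the rise with close arrays, from -4.76, -4.57 and -4.57 to -3.52, -3.31 and -3.27 (1.27 ± 0.10, adjusted p = 0.0017). Cxcl12, the stromal ligand of Cxcr4, read 4.53, 4.48 and 4.53 in WT and 3.06, 3.15 and 3.23 in HT (-1.37 ± 0.07, adjusted p = 0.000851).

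In complement, 10 of 25 genes were higher and 4 lower, with a median of 0.43. The C5a receptor C5ar1 and the C1q chains rose with the macrophage genes. Cfd, the protease that starts the alternative pathway, rose from -5.38, -5.47 and -5.78 to -3.29, -2.85 and -3.10 (2.46 ± 0.15, adjusted p = 0.000871), with 2 of 3 WT arrays well above background. Serping1, the inhibitor of C1, rose from 1.71, 2.00 and 2.01 to 3.19, 3.19 and 3.42 (1.36 ± 0.12, adjusted p = 0.00196). Among the falls, Cd55, which takes apart the C3 convertase on the cell's own surface, read 0.50, 0.92 and 0.87 in WT and -1.49, -1.08 and -1.04 in HT (-1.97 ± 0.17, adjusted p = 0.00187). Masp1, a protease of the lectin pathway, fell by 1.62 ± 0.13. Without WT array 3 or HT array 2, 2 genes were called higher and 3 lower. The counts were 3 and 3 without WT array 2, and 4 and 5 without HT array 3.

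Interleukins were read as a family by symbol, chosen after the values were seen. Of 11 tested, Il6 and Il11 were higher and Il18, Il33 and Il16 lower (45.5% called, against 7.73% of all genes). Il18, a cytokine of epithelia and macrophages, read 0.73, 0.94 and 1.10 in WT and -0.73, -0.80 and -0.64 in HT (-1.65 ± 0.11, adjusted p = 0.001), opposite to the macrophage markers in direction. Il16 read -1.79, -1.67 and -1.60 in WT and -2.98, -2.91 and -2.74 in HT (-1.19 ± 0.10, adjusted p = 0.00172).

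The falls began with genes of the mesothelium, the flat epithelium over the pancreas. Of 24 tested markers 13 were called lower and 0 higher, with a median of -1.11, against 4.78% of all genes called lower. Upk3b, a uroplakin, read 2.21, 2.74 and 2.65 in WT and -0.46, 0.01 and -0.04 in HT (-2.70 ± 0.19, adjusted p = 0.00107). Lrrn4, a leucine-rich membrane protein, read 1.01, 1.69 and 1.56 in WT and -1.29, -0.50 and -0.60 in HT (-2.21 ± 0.27, adjusted p = 0.00665). Wt1, the transcription factor of coelomic epithelium, read 3.52, 3.63 and 3.58 in WT and 2.33, 2.46 and 2.46 in HT (-1.16 ± 0.08, adjusted p = 0.000964). Array 1 tended to be the lowest of its genotype. Over the 13 genes it lay below its fellows by a median of -0.45 in HT and -0.37 in WT, the reverse of the macrophage markers. Ezr, which links membrane to actin, read 4.34, 4.62 and 4.69 in WT and 2.15, 2.52 and 2.72 in HT. Summed signal ran from 141 to 166 in WT and from 69.7 to 109 in HT, and with any single array left out 9 to 13 members were called lower. Without HT array 1, 2 members were called higher. Msln, the antigen mesothelin, read 2.25, 2.89 and 2.88 in WT and 0.24, 1.36 and 2.56 in HT and was not called (-1.29 ± 0.56, adjusted p = 0.247), with HT array 3, the array with the cancer cell trace, the highest of HT.

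Endothelial markers held 9 falls and 2 rises among 24 tested (45.8% called, against 7.73% of all genes), with a median of -0.80. With any single array left out 7 to 9 falls were called. Emcn, an endothelial sialomucin, read -1.37, -1.82 and -1.82 in WT and -4.59, -4.75 and -4.49 in HT (-2.95 ± 0.15, adjusted p = 0.000765). Esam, an adhesion molecule of endothelial junctions, read -0.79, -0.94 and -0.94 in WT and -3.40, -3.27 and -3.68 in HT (-2.56 ± 0.12, adjusted p = 0.000765). Kdr, the main VEGF receptor, fell by 1.40 ± 0.14, and Cdh5 and Myct1 were at least 1.95-fold and 2.12-fold lower. Flt1, which binds VEGF with high affinity, went the other way, reading -1.08 and -1.04 on WT arrays 1 and 3, just above that on WT array 2, and 0.50, 0.51 and 0.46 in HT (1.53 ± 0.07, adjusted p = 0.000608). Tek, Tie1, Erg, Tal1, Clec14a and Flt4 were not well above background on any of the 6 arrays, and the summed signal of the list was 15.7 to 15.9 in WT and 16.6 to 17.8 in HT.

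Markers of Schwann cells, glia and melanocytes split, with 2 of 18 higher and 4 lower and a median of -0.13. Mbp, the myelin basic protein, fell from 1.94, 2.30 and 2.08 to 0.28, 0.60 and 0.67 (-1.59 ± 0.14, adjusted p = 0.00223). Mlana, a melanosome protein, was at least 2.60-fold lower and Gap43, of growing axons, at least 1.33-fold. Ngfr, the low-affinity neurotrophin receptor, rose from -5.19, -5.09 and -5.30 to -3.78, -3.82 and -3.68 (1.43 ± 0.09, adjusted p = 0.000871). Cdh19 and Tyrp1 were not well above background on any of the 6 arrays, and Sox10 was not called. Acinar and islet markers (9 of 33 tested, median -0.05) had 0 calls in limma's test and 2 genes at an unadjusted p under 0.05. Among 9 adipocyte markers (median 0.08) only Cfd was called.

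Besides those already named, the 15 largest falls measured on all 6 arrays included Perp, Gata4, Vat1l, Angptl7, Rspo1, Akap5, Crb2, Rprm, Fam110c and Upk1b. All 15 stayed called in each of the 6 fits without an array, with differences from -3.16 to -1.97 there, and 13 of 15 on HT array 2 alone against WT. Angptl7, a secreted angiopoietin-like protein whose probe lies on chromosome 4 from 147869984 to 147870043 (mm9), read 3.42, 3.55 and 3.63 in WT and 0.79, 0.92 and 0.95 in HT (-2.65 ± 0.09, adjusted p = 0.00047). Crb2, an organiser of apical polarity, read 1.63, 2.07 and 2.06 in WT and -0.70, -0.33 and -0.22 in HT (-2.34 ± 0.17, adjusted p = 0.00139). Akap5, an anchor of protein kinase A, read 1.21, 0.71 and 0.92 in WT and -1.44, -1.48 and -1.35 in HT (-2.38 ± 0.13, adjusted p = 0.000851). No array overlapped between genotypes for these genes, as the rule that chose them required. Perp, a desmosomal protein induced by p53, read 1.85, 1.98 and 1.94 in WT and -1.28, -1.19 and -0.31 in HT, with HT array 3 the highest of HT (-2.85 ± 0.25, adjusted p = 0.00219).

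Some called falls entered the test through the WT arrays alone, so their p-values are not given as support. Camk4, a calmodulin-dependent kinase, was at least 3.12-fold lower and not well above background in HT, where WT read -3.81, -3.53 and -3.62. The other falls of this kind were Samd12 (at least 4.39-fold), Klra7, Synpr, Prl2c3, the proton-gated channel Asic1 and Zbtb8b, the last at least 2.47-fold lower. Samd12 was called in 1 of the 6 fits without an array, and its WT arrays read -3.73, -1.84 and -3.91.

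**Figure D4:**
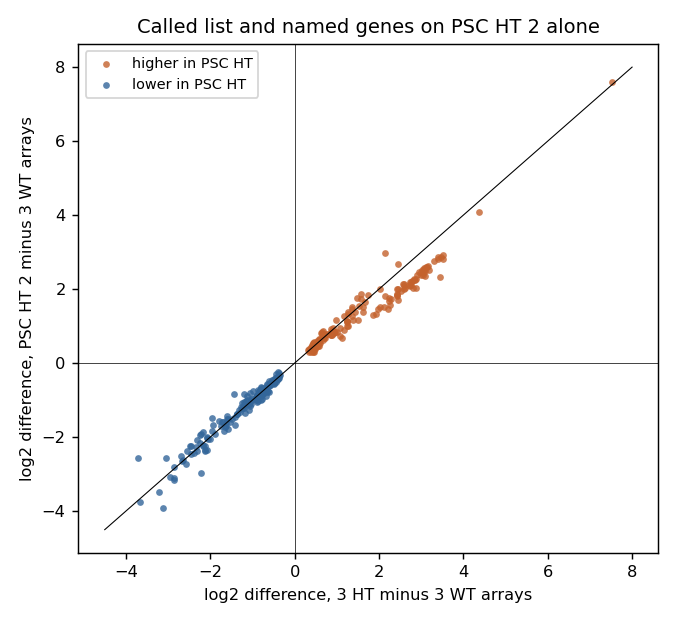
Difference (HT minus WT, log2) of the 319 called genes of the lists and the named genes on all 6 arrays against the same with HT array 2 as the only HT array, all 4 arrays then of low spike-in slope. The line marks equal values. Direction is fixed by the choice of called genes, and many of the largest rises lie below the line.

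The spike-in slope was lower on all WT arrays and on HT array 2, so the called genes were also read on that HT array alone. The plot of that reading holds 319 called genes of the lists and of the named genes, 163 higher and 156 lower. Their direction there is fixed, since the genotypes of a called gene do not overlap, so only the sizes can differ. Over all genes 435 were called in that fit, which has 1 HT array. With the slope as a covariate 460 were called and 0 of the 31 core macrophage markers, whose median difference was then 2.12.

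Transcription factors of mesoderm were called in both directions, 8 higher and 8 lower of 51, with a median of 0.01. Gata4 and Gata6, zinc finger factors of splanchnic mesoderm, both fell. Gata4 read -1.77, -1.81 and -1.72 in WT and -4.60, -4.94 and -4.30 in HT (-2.85 ± 0.16, adjusted p = 0.000851). Gata6 read 2.69, 2.76 and 2.69 in WT and 1.00, 1.20 and 1.18 in HT (-1.58 ± 0.08, adjusted p = 0.000818). Their partner Zfpm2 fell by 0.83 ± 0.08, and Lhx9, a LIM homeobox factor, was at least 1.85-fold lower. The rises were smaller. Irx3, a homeobox factor, rose by 0.89 ± 0.13, Osr2 by 0.68, Tcf21, a factor of visceral fibroblasts, by 0.64, and Prrx1, which marks mesenchymal progenitors, by 0.58. Prrx1 read 3.05, 2.83 and 2.88 in WT and 3.43, 3.45 and 3.61 in HT. No rise was called without WT array 3 and 2 were without WT array 2, HT array 2 or HT array 3, while 6 to 8 falls were called in each of the 6 fits.

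In the Wnt pathway 2 of 38 genes were higher and 5 lower, with a median of 0.07. Rspo1, which strengthens Wnt signals at the receptor and is also on the mesothelial list, read 2.79, 3.33 and 3.40 in WT and 0.28, 0.93 and 0.97 in HT (-2.45 ± 0.24, adjusted p = 0.00309). Wnt16, a ligand, rose from -3.81, -3.59 and -3.30 to -1.77, -1.55 and -1.31 (2.02 ± 0.17, adjusted p = 0.0018). Sfrp4, a soluble antagonist, fell from -3.33, -3.46 and -3.36 to -4.83, -4.89 and -4.84, with 2 of 3 HT arrays well above background (-1.47 ± 0.07, adjusted p = 0.000765). The ligands Wnt4 and Wnt9a fell by 0.70 and 0.79, and without WT array 2 only 2 falls were called.

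Of 46 TGF-beta and BMP genes 4 were higher and 4 lower (17.4% called, against 7.73% of all genes), with a median of 0.02. Bmp4, a ligand that patterns mesoderm, read 3.19, 3.49 and 3.44 in WT and 1.06, 1.37 and 1.46 in HT (-2.07 ± 0.14, adjusted p = 0.000964). The ligand Gdf6 fell by 0.74 ± 0.08 and the latent TGF-beta binding protein Ltbp4 by 0.89 ± 0.10. Of the 4 rises 0 remained without WT array 2 or WT array 3.

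Growth factors and their receptors held 5 rises and 7 falls among 53, with a median of 0.03. Igf2, a fetal growth factor, fell from -3.91, -3.87 and -3.74 to -5.19, -5.44 and -5.51 (-1.54 ± 0.11, adjusted p = 0.00107), with 2 of 3 HT arrays well above background. Met, the receptor of hepatocyte growth factor, fell from 0.66, 0.80 and 0.52 to -0.60, -0.67 and -0.60 (-1.28 ± 0.09, adjusted p = 0.0012). Ntrk3, the receptor of neurotrophin-3, rose from -4.82, -4.92 and -5.10 to -3.77, -3.30 and -2.74 (1.68 ± 0.25, adjusted p = 0.0143). Fgf9 rose by 1.57 ± 0.30, with HT arrays 2 and 3 at 0.79 and 0.86 and HT array 1 at -0.21. Without WT array 3, 1 rise and 4 falls were called, and without WT array 2 2 and 4. In Notch and Hedgehog signalling 1 of 20 genes was called, Gas1, a Hedgehog co-receptor, which fell from 0.70, 1.11 and 1.06 to -1.16, -0.62 and -0.72 (-1.79 ± 0.18, adjusted p = 0.00332).

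Guidance molecules, which steer axons, vessels and migrating cells, held 19 calls among 58 genes, 14 lower and 5 higher, with a median of -0.09. The share called was 32.8%, against 7.73% of all genes. Of the secreted class 3 semaphorins 5 fell and 1 rose. Sema3a, which repels axons through neuropilin, read 0.45, 0.46 and 0.38 in WT and -1.02, -1.15 and -1.62 in HT (-1.69 ± 0.16, adjusted p = 0.00261). Sema3f, at 3.63, 3.63 and 3.61 in WT and 2.38, 2.64 and 2.83 in HT, fell by 1.01 ± 0.12, and Sema3c, Sema3d and Sema3e fell by 1.60, 0.99 and 0.87. Sema3g rose from -3.40, -3.43 and -3.26 to -2.41, -2.10 and -2.06 (1.18 ± 0.11, adjusted p = 0.00302). Sema4d, a membrane semaphorin of leukocytes, rose from -3.71, -4.51 and -4.47 to -0.93, -2.35 and -2.12 (2.43 ± 0.41, adjusted p = 0.0205), with array 1 highest in both genotypes as for the macrophage markers. The ephrins Efna1 and Efna5 and the receptors Epha2 and Epha7 were lower, Efna5 by 1.20 ± 0.11. Without WT array 3, 6 falls and 2 rises were called, without WT array 2 8 and 2.

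Stellate cells are the main source of pancreatic matrix. Of 34 collagens 3 were higher and 4 lower, with a median of -0.02. Col4a6, a basement membrane chain, read 2.11, 2.29 and 2.28 in WT and 0.16, -0.00 and 0.19 in HT (-2.11 ± 0.09, adjusted p = 0.000608), and its gene neighbour on the X chromosome, Col4a5, fell by 0.41 ± 0.07. Col11a1, a fibril chain, fell from 2.45, 2.69 and 2.58 to 1.19, 1.37 and 1.43 (-1.24 ± 0.10, adjusted p = 0.00172). Col14a1, which coats fibrils, rose from -1.11, -0.89 and -0.92 to -0.23, 0.18 and 0.07 (0.98 ± 0.13, adjusted p = 0.00867). Col28a1 rose by 2.15 ± 0.43, from -4.94, -4.35 and -4.13 to -3.17, -1.49 and -2.31, and Col12a1 by 0.59 ± 0.11. Without WT array 2 or WT array 3, 1 rise and 3 falls were called.

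Proteoglycans, elastic fibre and matricellular genes held 8 rises and 2 falls among 67, with a median of 0.18. Postn, the matricellular protein periostin, read 5.59, 5.50 and 5.47 in WT and 6.06, 6.08 and 6.09 in HT (0.56 ± 0.07, adjusted p = 0.00729); it stayed called in all 6 fits without an array. Tnc, tenascin C, rose by 0.85 ± 0.14. Mgp, an inhibitor of calcification, fell from 6.08, 5.69 and 5.75 to 4.89, 5.03 and 5.07 (-0.85 ± 0.12, adjusted p = 0.0128). Without WT array 2, WT array 3 or HT array 2, 1 rise was called.

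Among 49 matrix proteases and inhibitors 6 were higher and 5 lower, with a median of 0.17. Timp3, a metalloprotease inhibitor bound to matrix, read 6.76, 6.66 and 6.70 in WT and 5.42, 5.49 and 5.56 in HT (-1.22 ± 0.07, adjusted p = 0.000871). Adamts8, a secreted metalloprotease, rose from -2.23, -2.32 and -2.39 to -0.87, -0.48 and -0.38 (1.74 ± 0.14, adjusted p = 0.00166). Mmp12, the macrophage elastase, rose from -1.19, -1.81 and -2.01 to 1.99, 0.28 and 0.26 (2.51 ± 0.50, adjusted p = 0.0327), in the array order of the macrophage markers. The counts were 2 and 3 without WT array 2.

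Of 31 integrin and laminin genes 3 were higher and 5 lower, with a median of -0.05. Both integrins that rose, Itgax and Itgb2, are chains of leukocyte receptors, and Itgax read -4.38, -5.47 and -5.47 in WT and -0.48, -2.19 and -2.10 in HT, with 2 of 3 WT arrays well above background (3.52 ± 0.53, adjusted p = 0.0143). Itga7, a laminin receptor chain, fell from 2.25, 2.50 and 2.35 to 0.81, 1.19 and 1.25 (-1.28 ± 0.14, adjusted p = 0.00427), and Itgb8, which activates TGF-beta, by 1.33 ± 0.13. None of the 3 rises remained without WT array 2 or WT array 3. Cadherins and other adhesion molecules held 4 rises and 9 falls among 42, with a median of -0.21. Cdh2, the N-cadherin of mesenchyme, read 3.68, 3.49 and 3.43 in WT and 2.78, 2.49 and 2.68 in HT (-0.88 ± 0.11, adjusted p = 0.00761). Cdh3 fell by 1.04 ± 0.09 and Vcam1, a receptor for leukocyte integrins, by 0.64 ± 0.09. Pcdh17, a protocadherin, fell from -2.73, -2.31 and -2.35 to -5.22, -4.70 and -4.93 (-2.49 ± 0.17, adjusted p = 0.00106), and Cdh10 was at least 1.93-fold lower. Cadm1 rose by 2.21 ± 0.43, with HT arrays at -1.81, -3.25 and -2.48, and 1 rise of the list was called without WT array 2, WT array 3 or HT array 3.

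Contractile genes were read on the activated stellate list. Of its 25 genes 4 were higher and 1 lower, with a median of 0.11. Mylk, the kinase of myosin light chain, read 5.67, 5.23 and 5.48 in WT and 6.03, 6.21 and 6.28 in HT (0.72 ± 0.13, adjusted p = 0.0266), and Actg2, an enteric smooth muscle actin, 6.76, 6.62 and 6.76 against 7.04, 7.12 and 7.15 (0.39 ± 0.08, adjusted p = 0.0324). Cspg4, the pericyte proteoglycan NG2, fell by 0.85 ± 0.18. Of these 5 (Mylk, Postn, Lmod1, Actg2 and Cspg4) Postn alone stayed called in every fit without an array, and 1 rise was called without WT array 2, WT array 3, HT array 2 or HT array 3. In the retinoid list 1 of 13 genes was higher and 2 lower, with a median of -0.10 that turned to 0.043 without WT array 1 and 0.037 without HT array 1. The rise, Rdh10, was called in 0 of the 6 fits without an array. Aldh1a1, which makes retinoic acid, read 4.10, 4.32 and 4.40 in WT and 2.80, 3.22 and 3.23 in HT (-1.19 ± 0.15, adjusted p = 0.0073), and Aldh1a2 fell by 0.86 ± 0.12.

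Among called genes of the highest level, the rises were Lrrc32, a docking protein of latent TGF-beta, Actg2, Tuba1c, F3, Csrp2 and Slc1a6, with differences of 0.39 to 0.67. F3, the tissue factor that starts coagulation, read 5.61, 5.96 and 5.88 in WT and 6.37, 6.60 and 6.47 in HT (0.67 ± 0.12, adjusted p = 0.023). Of these 6, 5 were called without WT array 1 and at most 1 without any other array. The falls were Meg3, Wdr92, Cpe, Gas6, Mt1 and Timp3. Cpe, a carboxypeptidase of prohormones, read 7.06, 7.02 and 7.06 in WT and 6.41, 6.54 and 6.52 in HT (-0.55 ± 0.07, adjusted p = 0.00808). Gas6, a ligand of Axl, fell by 0.51 ± 0.08.

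The genes that p53 drives, with cell cycle inhibitors, held 14 falls and 0 rises among 34, with a median of -0.31. The share called was 41.2%, against 4.78% of all genes called lower. Cdkn2a, the locus of p16 and Arf, read 3.75, 3.55 and 3.37 in WT and 2.37, 2.20 and 2.59 in HT (-1.17 ± 0.14, adjusted p = 0.00662), and its neighbour Cdkn2b fell by 0.89 ± 0.10. Pmaip1, the death-promoting Noxa, read 2.78, 2.55 and 2.62 in WT and 1.77, 1.67 and 1.76 in HT (-0.92 ± 0.09, adjusted p = 0.00261). Mdm2, the ligase that p53 induces against itself, read 5.12, 4.97 and 4.98 in WT and 4.63, 4.48 and 4.53 in HT (-0.48 ± 0.08, adjusted p = 0.0205). There were 7 falls without WT array 3, 8 without WT array 2, 9 without HT array 3 and 8 with the slope as a covariate. With HT array 2 as the only HT array 4 were called, at a median of -0.36. No gene of 54 for DNA replication and mitosis was called in limma's test, with a median of 0.21. Of the 54, 20 had an unadjusted p under 0.05 in that test, against 22.2% of all genes. On 24 of them the genotypes did not overlap, against 29.1% of all genes.

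Among 37 genes of glycolysis and hypoxia 7 were higher and 1 lower, with a median of 0.22. Slc2a3, a glucose transporter, fell from -0.48, -0.06 and -0.13 to -2.20, -1.82 and -1.81 (-1.72 ± 0.16, adjusted p = 0.0024), and Slc2a1, another one, rose from 4.37, 4.48 and 4.48 to 4.92, 4.91 and 4.86 (0.45 ± 0.07, adjusted p = 0.0158). Aldoc, a fructose-bisphosphate aldolase, rose by 0.93 ± 0.13 and Adm, the hypoxia-induced peptide adrenomedullin, by 0.60 ± 0.10. The rises came down to 1 without WT array 2, 2 without WT array 3 or HT array 2 and 3 without HT array 3. Genes of oxidative stress and detoxification held 9 falls and 1 rise among 43, with a median of 0.01. The metallothioneins Mt1 and Mt2, which bind zinc, fell by 0.81 ± 0.10 and 1.13 ± 0.14, and Mt1 read 6.76, 6.48 and 6.60 in WT and 5.73, 5.76 and 5.92 in HT. Ces2g, a carboxylesterase, fell from -1.91, -1.89 and -1.97 to -3.28, -3.62 and -3.75 (-1.62 ± 0.13, adjusted p = 0.00166), and Gsta3, a glutathione transferase, by 1.36 ± 0.15.

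The other metabolic and stress lists held few calls. The shares called were 6.06% for sterol and fatty acid genes, 5.88% for unfolded protein and amino acid stress and 3.85% for immediate early genes. Over all genes the share was 7.73%. Of 33 sterol and fatty acid genes 2 were higher, among them Stard4, a cholesterol carrier, by 0.55 ± 0.11 (median 0.19, and Stard4 was called in 0 fits without an array). The list of unfolded protein and amino acid stress had 1 rise, Manf, and 1 fall, Slc7a3, among 34 (median 0.07), and neither was called without WT array 1, WT array 2, WT array 3, HT array 1 or HT array 3. The clock list had 1 rise, Nr1d1, and 1 fall among 15 (median 0.04), and the rise was not called without WT array 2, WT array 3, HT array 2 or HT array 3. Only Dusp5, a phosphatase of ERK, was called among 26 immediate early genes, lower by 0.78 ± 0.17 (median -0.10), and not without WT array 2, WT array 3, HT array 2 or HT array 3. Of 25 prostaglandin and lipoxygenase genes 3 were higher and 1 lower (median 0.08), and of the rises 0 remained without WT array 2 or WT array 3. Alox5ap, the partner of 5-lipoxygenase, rose by 2.43 ± 0.41 in the array order of the macrophage markers, and Ptgs1, the constitutive cyclooxygenase, fell from 4.34, 4.10 and 4.13 to 3.47, 3.29 and 3.40 (-0.80 ± 0.10, adjusted p = 0.00657). In the bone and cartilage list Sox6 fell by 2.18 ± 0.13 and Runx2 rose by 0.45 ± 0.09 among 14 (median -0.05). For Runx2 the direction depended on the probe, with -0.074 from the probe of a RefSeq transcript. Galectins (9 tested, median 0.31) had 0 calls in limma's test and 4 genes at an unadjusted p under 0.05. Lgals3, which macrophages also express, read 4.23, 4.16 and 4.17 in WT and 5.63, 4.61 and 4.74 in HT (0.81 ± 0.26, adjusted p = 0.132).

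Imprinted genes, read from 1 parental copy, were lower in 9 of 28 cases and higher in 1, with a median of -0.18. The share called was 35.7%, against 7.73% of all genes. H19, a growth-limiting noncoding RNA beside Igf2, read -0.23, -0.22 and -0.40 in WT and -2.39, -2.63 and -2.21 in HT (-2.13 ± 0.12, adjusted p = 0.000851). Plagl1, a zinc finger factor, fell by 1.25 ± 0.18, the transporter Slc38a4 by 1.37 ± 0.11 and Grb10, an adaptor of insulin signalling, by 0.72 ± 0.08. Meg3, Rian and Mirg are noncoding RNAs of 1 imprinted cluster on chromosome 12, and all were lower. Rian read 3.37, 3.71 and 2.89 in WT and 2.45, 1.65 and 1.67 in HT (-1.40 ± 0.29, adjusted p = 0.0369), and Meg3 fell by 0.45 ± 0.08 but was called in 0 of the 6 fits without an array. There were 6 falls without WT array 2 or WT array 3.

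By position, 101 tested entries lay between 110 and 115 Mb on chromosome 12 (mm9), and 20 of them were called (19.8%), 19 lower. That window holds Meg3, Rian and Mirg. Several other called entries there are named only by a chromosome interval. Some of these intervals overlap, or are the same interval read on both strands. The 20 therefore need not be separate genes, and the count may read the same transcripts more than once. The 1 rise there was Dio3, the deiodinase that inactivates thyroid hormone (0.95 ± 0.17, adjusted p = 0.0238). Of 376 windows of 5 Mb with at least 20 genes, the highest share was 27.3%, 6 of 22 genes between 40 and 45 Mb on chromosome 17. By whole chromosome, over the autosomes and X, the share ran from 5.79% on chromosome 9 to 9.38% on chromosome 12.

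Genes that vary between inbred strains of mice gave 2 rises and 4 falls among 16, with a median of -0.06. Klra4, a lectin receptor of natural killer cells with close copies, fell from -0.95, -1.11 and -0.94 to -2.95, -3.35 and -2.90 (-2.07 ± 0.14, adjusted p = 0.000964), and read 1.97 in untreated cancer cells. Ndufa4l2 rose from 1.13, 1.07 and 1.08 to 2.03, 2.61 and 2.71 (1.36 ± 0.18, adjusted p = 0.00913). Without WT array 2 or WT array 3, 2 rises and 1 fall were called. The strain of the mice was not given, so its part in these differences was not tested. None of 6 sex chromosome genes was called in limma's test (median -0.04), with 1 at an unadjusted p under 0.05. Xist, the RNA that coats the inactive X, read -1.79, -1.31 and -1.21 in WT and -1.44, -1.68 and -1.49 in HT.

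Symbol families chosen after the values were seen gave further counts. Of 44 potassium channel genes 6 were higher and 2 lower, and of 60 Gpr and Adgr receptors 4 were higher and 11 lower. Of 356 zinc finger genes named Zfp, many of them close copies, 1 was higher and 23 lower, a share near the 7.73% of all genes, with a median of -0.10.

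**Figure D5:**
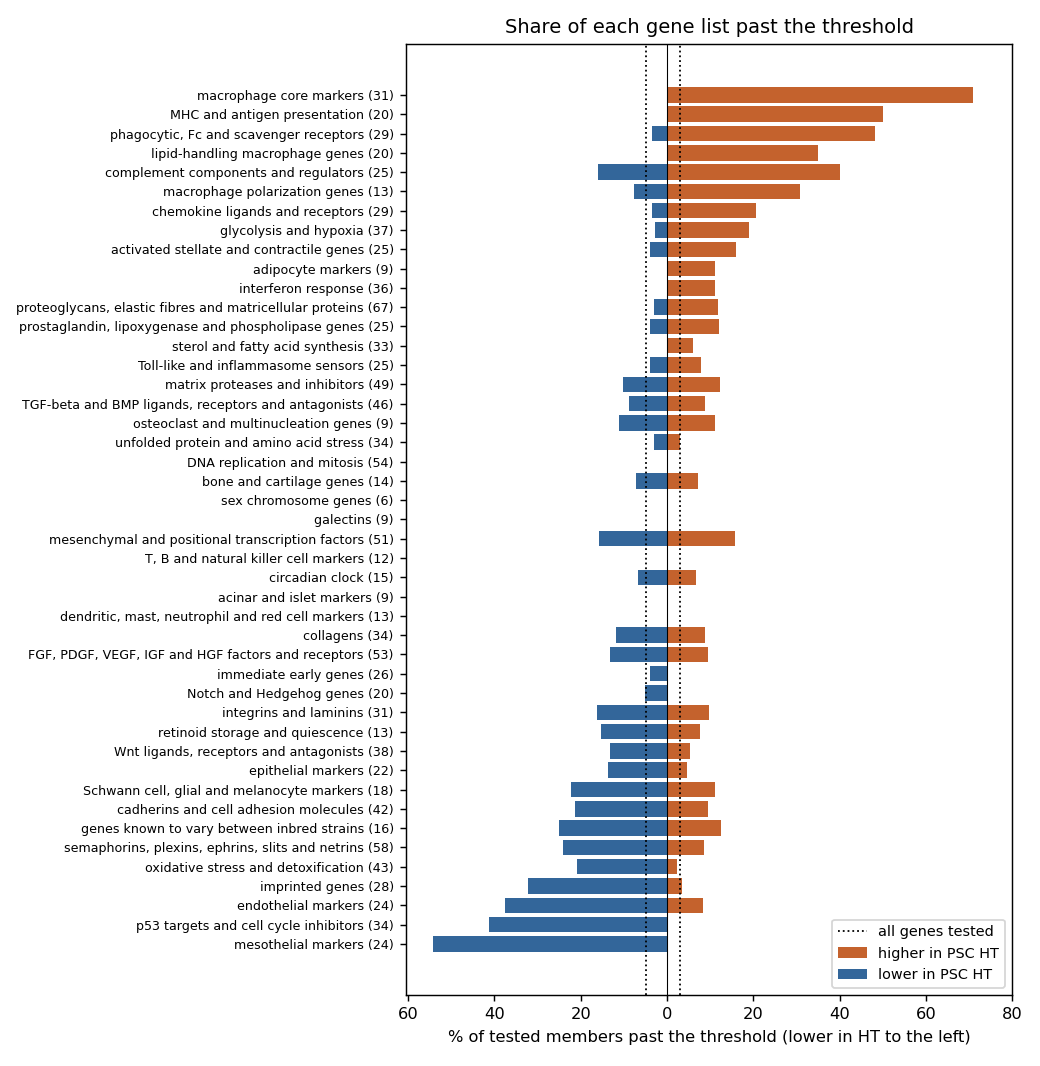
Percentage of the tested members of each gene list (number tested in parentheses) called higher (orange, right) or lower (blue, left) in HT, with dotted lines at 2.95% and 4.78%, the shares of all genes. Macrophage core markers lead the rises with 22 of 31 and mesothelial markers the falls with 13 of 24.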

How the data were processed

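Agilent 1-colour mouse arrays gave 1 scanner file a sample. The authors deposited signal intensity per spot, background-subtracted by Feature Extraction (version 10.7.3.1) as recorded per the file headers. A deposited table of log2 values for the same arrays, whose preparation is not given in the sources used here, served as an alternative. Control spots and spots marked as outliers were left out. The log2 signal minus the array's 75th percentile was averaged per probe, and the brightest probe over all 15 arrays stood for a gene. Of 56605 probes, 32994 were named by accession through RefSeq tables (GRCm38.p6) and the others by symbol, synonym or the file's name. Probe coordinates are mm9, per the file headers. Genes well above background on all arrays of 1 genotype or more were tested with limma 3.58.1 (lmFit and eBayes, R 4.3.3) over the 6 PSC arrays, with Benjamini-Hochberg adjustment over all 20885 genes and a threshold of 0.05.

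A fold with "at least" sets the bright genotype's mean against the higher, per array, of the dim reading and the lowest signal well above background. The labels' double-stranded cDNA does not mark strand, so antisense transcripts cannot be told apart. Named genes were the 15 largest called differences in each direction among genes well above background on all 6 arrays, the 8 largest bounds, the 6 called genes of highest level, up to 4 called members a list with the largest differences, and the first 4 stellate, epithelial and galectin genes. The 15 in each direction were also required to have no overlap between genotypes, which held for all called genes. Clone names were left out, and other called list members were also named. Members, gene lists and tests were chosen with earlier results of these data known. Tested on simulated data for this comparison, the fit called 28.4%, 74.6% and 97.0% of genes changed by 0.5, 1 and 2 log2 units and 8 of 20685 unchanged ones. Alternatives changed the background correction, scaling, filter, probe choice, blocks, variance model, arrays and threshold. The number of arrays limits the precision. A few genes are not reported here.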

Additional observations from a re-analysis of the deposited data

Results flagged for a closer look

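Cancer cell transcripts were read on HT array 3, which is 1 of the 3 HT arrays of the comparison. Their median signal was 0.853% of that in untreated cancer cells over 47 genes, with 36 of the 47 well above background there. The genes were chosen as not well above background on the other PSC arrays, so the medians of 0.0546% to 0.0683% there are fixed low by that choice. The source of this signal was not tested.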

How the results depend on the processing

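The main count was 1615 genes, 616 higher and 999 lower, with 584 at least 2-fold (213 and 371). Leaving out 1 array gave 574 to 1414 genes, 150 to 518 higher, 424 to 904 lower and 345 to 573 at least 2-fold. Without a filter on dim probes there were 401 (92 and 309, 293 at least 2-fold), within slide 2 627 (213 and 414), and at an adjusted p of 0.01 520 (394 lower, 316 at least 2-fold). Within slide 1, which holds 1 WT array, limma called 0 in each direction and 0 at least 2-fold, with 2465 genes at an unadjusted p under 0.05. Array weights gave 2726 (1195 and 1531), all 15 arrays in 1 fit 2459 (1072 higher), and a trended, robust variance 954 higher. At least 2-fold calls numbered 339 after normexp and 340 in the deposited log2 table. HT array 2 alone against WT gave 435 (112 and 323), and the spike-in slope as a covariate 460 (110 and 350, 316 at least 2-fold). Both of these were chosen after seeing the data. Other scalings, probe rules and the slide as a block stayed within 1.5 times the main count. The trace on HT array 3 was 1.74% with normexp, 1.01% against all 9 cancer cell arrays and 0.831% over 102 genes, and the highest other PSC array was then at 0.941%, 0.0880% and 0.188%. Runx2 turned to -0.074 with RefSeq probes first. Lgals2 ran from -0.96, without HT array 3, to 1.42 when 1 array was left out. For other settings the cause was not tested.

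Over all genes, the deviations of same-numbered arrays correlated at 0.197, 0.0275 and -0.106, and the main fit did not pair arrays by number. Pairs of numbers 1 and 2 share a slide. The other pairs on 1 slide were HT array 2 with WT array 3, at 0.355, and HT array 3 with WT array 1, at 0.0709. Pairs on different slides ran from -0.305 to 0.0167. Both arrays 1, which share slide 1, lay above their fellows for called macrophage markers, by medians of 1.63 in HT and 1.00 in WT. For called mesothelial markers they lay below, at -0.45 and -0.37. Whether arrays of 1 number share a source of variation was not tested. The fit with the replicate number as a block gave 1151 genes, 443 higher and 708 lower, of which 1007 were called without it too.

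With 3 arrays a genotype, small changes and genes near background are the least certain. Slope and genotype overlap in all but 1 HT array.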
